A study of Mus musculus with 15 samples.

Results

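The VEGF family, its receptors and *Angpt1*, 10 genes in all, were followed in cultured mouse RPE cells (mRPE) and in mouse RPE/choroid, namely the ligands *Vegfa*, *Vegfb*, *Vegfc*, *Vegfd* and *Pgf*, the receptors *Kdr* (VEGFR2) and *Flt1* (VEGFR1), the co-receptors *Nrp1* and *Nrp2*, and *Angpt1*, a ligand of the Tie2 receptor. They were chosen by gene symbol, and all 10 had a row among the 20910 genes of the mRPE count table and among the 25038 genes of the RPE/choroid count table. The RNA-seq libraries numbered 15, of which 9 came from mRPE and 6 from tissue. The mRPE libraries were 4 of WT cells, 3 of the Prom1-KO line KO22 and 2 of the Prom1-KO line KO26. The study set both KO26 libraries aside as outliers in its own analysis, and they are kept here as a group of their own. The mRPE line came from RPE of C57/BL6J mice aged 8 to 12 weeks, whose cells were pooled and immortalized with HPV E6/E7, and each knockout line was made from it with lentiviral Cas9 and a *Prom1* guide RNA against exon 5, so that differences between lines include whatever separates one line from another. The labels do not say whether the WT mRPE cells carried Cas9 or a scrambled guide RNA. The tissue libraries were 3 of WT and 3 labelled Prom1-KO, in which *Prom1* fl/fl was combined with RPE65-Cre and tamoxifen given by gavage. Whether the WT mice carried the floxed allele or Cre, or received tamoxifen, is not given in the sources used here. The methods give an age of 6 to 8 weeks and both sexes for the mice of the study as a whole, not for each group.

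VEGF ligands are secreted dimers that bind receptor tyrosine kinases on endothelial cells, and the neuropilins hold ligand and receptor together. *Kdr* carries most of the signal that drives endothelial growth and permeability, whereas *Flt1* binds *Vegfa* tightly and signals weakly, so that it can act as a decoy. In the eye the RPE secretes *Vegfa* toward the choriocapillaris, the fenestrated capillary bed that depends on it, and excess VEGF is the target of treatment in neovascular macular degeneration.

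*Prom1* itself was not analysed in the mRPE libraries. In RPE/choroid its level was 48.7, 49.6 and 53.3 CPM (counts scaled to library size, with TMM factors) in WT and 49.9, 48.1 and 35.5 in the libraries labelled Prom1-KO (log2 fold change -0.18 ± 0.16 SE, edgeR adjusted p = 0.824). In the same order, 12 photoreceptor markers summed to 145.2, 92.0 and 1321 CPM in WT and 672.8, 201.1 and 62.7 CPM in Prom1-KO. The part of photoreceptor RNA in the *Prom1* level was not tested. Library totals ran from 8076188 to 27537863 counts in mRPE and from 48154444 to 61766179 in RPE/choroid. Replicate 3 labelled Prom1-KO stood apart, with 80.4% of its counts on the mitochondrial rRNA genes against 55.3% to 63.2% in the other 5 tissue libraries. The sex-linked genes also separated the tissue libraries. *Xist* was at 1316 and 1146 CPM in replicates 1 and 2 labelled Prom1-KO and at 1.79 to 3.60 CPM in the other 4 tissue libraries, and the Y-linked gene *Ddx3y* had 1 and 0 counts in the former and 790 to 1452 in the latter, so the female pattern was seen in Prom1-KO and in no WT library. In mRPE, *Ddx3y* was at 44.8 to 60.0 CPM in WT, 41.8 and 50.7 CPM in KO26, and 0.605, 5.83 and 4.89 CPM in KO22. Of 12 RPE markers 2 had a row in the mRPE table, and their summed level was 6.198 to 10.5 CPM in WT mRPE against 1921 to 2862 CPM for all 12 in WT RPE/choroid. *Rpe65*, *Rlbp1*, *Lrat* and *Otx2* were not among the genes listed for mRPE. Of 15 endothelial markers 8 had a row in the mRPE table, while others, among them *Cdh5*, *Tie1*, *Cldn5* and *Erg*, had none. The 8 summed to 93.9 to 132.3 CPM in WT mRPE, 106.7 to 135.1 CPM in KO22 and 128.5 and 132.7 CPM in KO26. Single markers went different ways in KO22 against WT, with 5 positive and 3 negative log2 fold changes. By the rule for a call given below, 2 were higher (*Ecscr*, 4.48, and *Plvap*, 1.82) and 1 lower (*Tek*, -2.38). Over all genes 11.4% were called higher and 13.8% lower. All 15 summed to 129.9 to 257.1 CPM in WT RPE/choroid. Fibroblast markers summed to 12800 to 17500 CPM in WT mRPE, 5565 to 8668 CPM in KO22 and 19870 and 21790 CPM in KO26.

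The bases before the annotated starts of the ligand *Vegfa* and its receptors *Kdr* and *Flt1* are shown. Each sequence is the 250 bases upstream of the start in RefSeq's promoter table, found once in GRCm39, in lower case with capitals for the ACGTG and GCGTG cores of the hypoxia response element and for the GC box GGGCGG, on either strand. All 3 genes are on the minus strand, and at most 6 bases of each window lie in an exon of the same gene in GENCODE M39. The *Kdr* window lies inside the gene as GENCODE M39 places it, with its start at chr5:76139884, and so is upstream of the RefSeq start only. The windows are chr17:46343304-46343553 for the outermost of the 2 *Vegfa* starts in the table, chr5:76139116-76139365 for *Kdr* and chr5:147662822-147663071 for *Flt1*.
Vegfa: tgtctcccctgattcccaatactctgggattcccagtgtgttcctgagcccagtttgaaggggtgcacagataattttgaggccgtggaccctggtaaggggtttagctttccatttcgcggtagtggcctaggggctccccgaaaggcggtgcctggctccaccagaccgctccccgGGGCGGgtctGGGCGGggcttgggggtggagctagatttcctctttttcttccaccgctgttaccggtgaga
Kdr: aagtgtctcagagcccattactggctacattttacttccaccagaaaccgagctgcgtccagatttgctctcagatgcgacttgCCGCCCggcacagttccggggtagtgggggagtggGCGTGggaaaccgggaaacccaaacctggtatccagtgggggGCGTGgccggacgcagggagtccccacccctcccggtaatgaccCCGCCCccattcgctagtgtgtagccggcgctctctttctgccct
Flt1: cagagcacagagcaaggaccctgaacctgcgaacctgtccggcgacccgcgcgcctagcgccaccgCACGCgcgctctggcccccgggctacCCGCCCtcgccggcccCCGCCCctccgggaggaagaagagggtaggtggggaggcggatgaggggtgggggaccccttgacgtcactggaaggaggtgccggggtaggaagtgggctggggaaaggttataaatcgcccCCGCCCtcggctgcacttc
The *Kdr* window held GCGTG at 2 positions and GGGCGG at 2, the *Flt1* window GCGTG at 1 and GGGCGG at 3, and this *Vegfa* window GGGCGG at 2 and neither hypoxia core. The window of the other *Vegfa* start, chr17:46336090-46336339, held ACGTG at 1 position, GCGTG at 1 and GGGCGG at 1, and is not printed because 218 of its bases lie in exons of the gene. Over 32851 promoter windows of the same length, 16.6% held ACGTG, 28.2% GCGTG and 32.7% GGGCGG on either strand. ACGTG and GCGTG can overlap on opposite strands, and a match is a description of the letters only. The GC content was 59.2% for *Vegfa*, 61.6% for *Kdr* and 70.4% for *Flt1* against a median of 52.4%.

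In WT mRPE the 10 genes differed in level by more than 2 orders of magnitude, compared as CPM per kilobase of exon (CPM/kb). *Vegfd*, a ligand of the lymphatic receptor *Flt4*, led with 86.1 ± 15.8 CPM/kb (SD, n = 4), and its lowest library was above the highest of any other member. *Kdr* at 19.2 ± 4.202, *Vegfa* at 17.4 ± 5.04, *Vegfc* at 13.7 ± 1.76, *Nrp2* at 13.6 ± 3.16, *Angpt1* at 10.8 ± 3.02 and *Nrp1* at 8.97 ± 1.83 CPM/kb followed, each overlapping its neighbour in this order. *Vegfb* and *Flt1* overlapped at 4.08 ± 0.486 and 3.999 ± 1.07 CPM/kb, and *Pgf* was last at 0.300 ± 0.115 CPM/kb. In KO22 the order was led by *Vegfa* and *Nrp2*, which overlapped, and *Kdr* was last at 0.240 ± 0.186 CPM/kb (n = 3), overlapping *Pgf*. In KO26 *Vegfd* remained first at 64.7 and 66.9 CPM/kb. In WT RPE/choroid, a separately normalized table, *Vegfa* led at 9.62 ± 0.685 CPM/kb (n = 3), *Nrp2* followed at 6.26 ± 1.33, and *Vegfc* and *Vegfd* were lowest at 0.721 ± 0.169 and 0.944 ± 0.0800 CPM/kb.

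KO22 was compared with WT mRPE to ask how the VEGF system differed in cells without *Prom1*. The test was edgeR's quasi-likelihood F test, the library series (8995 or 9262, the study's sequencing batches) was a term in the fit, and a call needed both an adjusted p below 0.05 and a log2 fold change beyond 1.2 in either direction. Of the 10 genes, 2 were called higher (*Vegfa* and *Nrp2*) and 4 lower (*Vegfd*, *Kdr*, *Nrp1* and *Angpt1*), against a background of 11.4% of 20455 tested genes called higher, 13.8% lower and 25.2% in either direction. With the adjusted p alone 8 of 10 passed, where 53% of all genes did. In 3 genes every KO22 library was above every WT library and in 5 below, patterns that 24.8% and 25.3% of all genes showed (50.2% in either direction). The median log2 fold change was -0.34 over the 10 genes and -0.03 over all genes. At the background share, between 2 and 3 of 10 genes would be called.

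*Vegfa*, the main angiogenic ligand of the RPE (chr17:46327919-46343309, GRCm39), was at 65.2, 107.2, 63.7 and 62.9 CPM in the WT replicates, 575.3, 129.2 and 137.3 CPM in KO22, and 55.9 and 110.0 CPM in KO26. KO22 did not overlap WT, but KO22 replicate 1 stood far above the other replicates of its line. The log2 fold change of KO22 was 1.45 ± 0.42 (SE, edgeR adjusted p = 0.0165). The call rested on series 8995, in which the log2 ratio between the single libraries was 3.13 against 0.81 in series 9262. Without KO22 replicate 1 the fitted log2 fold change was 0.78, without WT replicate 1 it was 0.76, and in series 9262 alone it was 0.77, each under the limit on the fold change. With edgeR the adjusted p was 8.4e-05 without KO22 replicate 1 and 0.00022 without WT replicate 1, so a smaller rise still passed it. These fits are close to the one in series 9262 alone, since the series term takes up the single library left in 8995. KO26 gave 0.08 ± 0.53 against WT (adjusted p = 0.948). KO22 was above KO26 by 1.60 ± 0.61 on the log2 scale, which did not pass (adjusted p = 0.065).

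The library with the most *Vegfa* also had the most RNA of many hypoxia-induced genes. The summed level of 20 hypoxia targets was 9058 CPM in KO22 replicate 1, 3897 and 3699 CPM in the other KO22 replicates, 2679 to 3262 CPM in WT and 4177 and 5744 CPM in KO26, and 14 of the 20 had their highest value of all 9 libraries in KO22 replicate 1. *Ero1a*, an oxidase of the endoplasmic reticulum, was at 2393 CPM there, 399.4 and 333.3 CPM in the other KO22 replicates and 112.4 to 179.3 CPM in WT. The share of all genes with their highest value in KO22 replicate 1 was not computed, so the count of 14 has no background beside it. The part of this library's state in the *Vegfa* result was not tested. Across the 9 mRPE libraries the genes whose log2 CPM was most like that of *Vegfa*, of 16371 compared, were *Gm38384* (Pearson r = 0.986), the immediate early gene *Ier3* (0.977), the potassium channel gene *Kcnh1* (0.976), the ubiquitin ligase gene *Nedd4l* (0.972) and *Pfkfb3* (0.965), which makes the activator of glycolysis fructose 2,6-bisphosphate. These values share the 9 libraries and their groups and are a description only.

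*Vegfd* (chrX:163156240-163185646) fell in KO22. It was at 188.8, 238.8, 257.2 and 297.3 CPM in WT, 74.2, 49.2 and 37.3 CPM in KO22, and 184.4 and 190.6 CPM in KO26. All KO22 libraries were below all others, and both KO26 libraries lay at the lower end of WT. The log2 fold change was -2.24 ± 0.25 in KO22 (edgeR adjusted p = 7.91e-05), a 4.71-fold lower level, and it was -1.34 in series 8995 and -2.61 in series 9262. In KO26 it was -0.42 ± 0.26 (adjusted p = 0.4). KO22 was below KO26 by -1.80 ± 0.26 on the log2 scale (adjusted p = 0.000519). The median over genes of the X chromosome was 0.20 in KO22. Per kilobase, *Vegfa* was below *Vegfd* in every WT and KO26 library, with ratios of 0.140 to 0.298 and of 0.201 and 0.383, and above it in every KO22 library, at 1.74 to 5.14.

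*Vegfc*, the main lymphangiogenic ligand (chr8:54530257-54640131), showed no detectable difference. Its level was 31.9 to 43.2 CPM in WT, 22.7 to 42.5 CPM in KO22 and 29.4 and 48.8 CPM in KO26, with log2 fold changes of -0.13 ± 0.13 for KO22 (edgeR adjusted p = 0.397) and 0.11 ± 0.15 for KO26 (adjusted p = 0.71). None of the 7 tested genes of *Vegfc* processing, from a list of 9, was called in KO22 or KO26, where 25.2% and 1.92% of all genes were. With the adjusted p alone 1 of the 7 was higher and 3 were lower in KO22, where 53% of all genes passed in either direction.

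*Vegfb*, which binds *Flt1* and *Nrp1* and is tied to fatty acid use and survival more than to vessel growth (chr19:6958447-6965127), was at 11.1, 14.1, 13.2 and 14.8 CPM in WT, 6.23, 9.64 and 11.1 CPM in KO22, and 16.3 and 14.5 CPM in KO26. The KO22 values were below WT by a narrow margin. The log2 fold change of -0.55 ± 0.16 passed the adjusted p (edgeR, 0.0147) but not the limit on the fold change. Genes of chromosome 19 as a whole had a median of -0.42 in KO22, and 44.7% of them lay below *Vegfb*. KO26 differed from WT by 0.33 ± 0.22 (adjusted p = 0.426) and KO22 from KO26 by -0.88 ± 0.23 (adjusted p = 0.0131), again within the fold limit.

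*Pgf*, placental growth factor, a ligand of *Flt1* (chr12:85213409-85224564), was near the lower end of what was measured, with 0.954, 1.17, 0.393 and 1.00 CPM in WT, 2.59, 0.482 and 0.388 CPM in KO22, and 2.88 and 9.14 CPM in KO26. Both KO26 libraries were above every WT library, by different amounts. KO26 was higher by 2.68 ± 0.68 on the log2 scale, with an adjusted p of 0.0582 from edgeR over all 9 mRPE libraries. When WT and KO26 were fitted without KO22, the value was 2.65 and it was called. That fit called more genes higher in all, 408 of 19877 against 250 of 20737 in the fit over 9 libraries. KO22 gave -0.02 ± 0.53 against WT (adjusted p = 0.979) and was lower than KO26 by -2.48 ± 0.74 (adjusted p = 0.0247). Of the ligands, *Vegfa* thus had the highest fitted value in KO22 and *Pgf* in KO26.

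**Figure D1:**
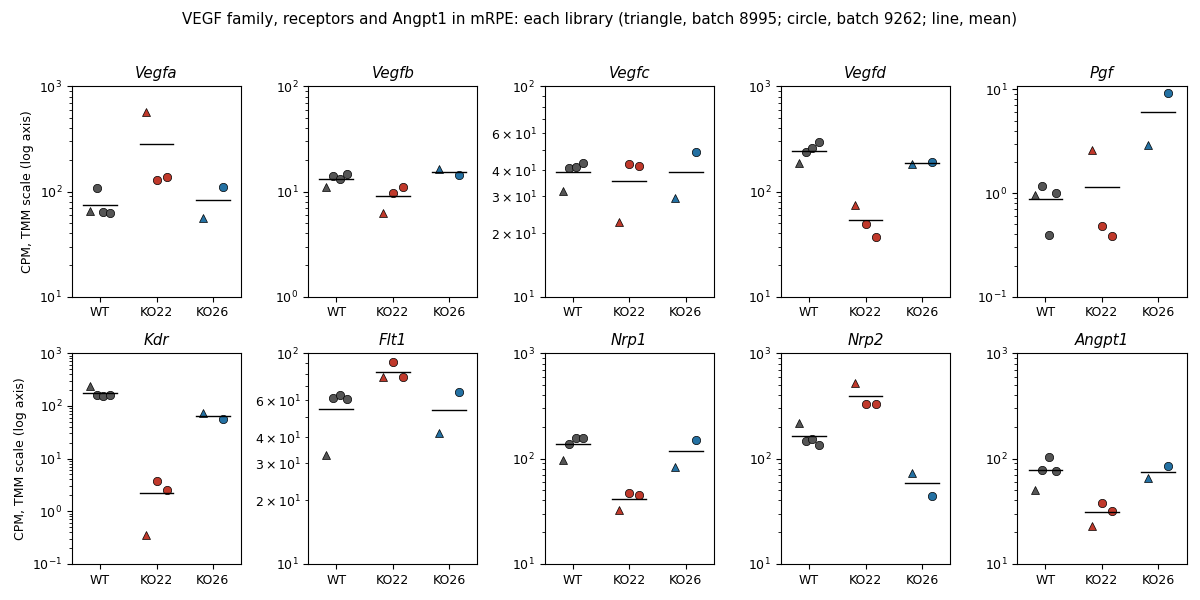
CPM on the TMM scale (log axis, a separate range for each gene) in each mRPE library of WT (n = 4), KO22 (n = 3) and KO26 (n = 2), with triangles for series 8995, circles for series 9262 and a line at the mean. *Kdr* lies at 0.346 to 3.71 CPM in KO22 against 151.2 to 234.5 CPM in WT, and *Nrp2* is highest in KO22 and lowest in KO26.

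*Kdr*, the main signalling receptor of *Vegfa*, showed the largest difference of the 10 genes in KO22 (chr5:76093487-76139884, minus strand). Its level was 234.5, 160.2, 151.2 and 161.7 CPM in WT and 0.346, 3.71 and 2.56 CPM in KO22, from 4, 77 and 33 counts. KO26 lay between, at 72.3 and 55.3 CPM, and none of the groups overlapped. KO22 was 74.5-fold below WT (log2 fold change -6.22 ± 0.47, edgeR adjusted p = 8.68e-06), with log2 ratios of -8.12 in series 8995 and -5.46 in series 9262. KO26 was below WT by -1.49 ± 0.42 on the log2 scale, which did not pass in the fit over 9 libraries (adjusted p = 0.0869), and within the series it was -1.69 and -1.50. With WT and KO26 alone *Kdr* was called lower (log2 fold change -1.61). That fit called more genes lower in all, 410 of 19877 against 149 of 20737 in the fit over 9 libraries. KO22 was also 26.5-fold below KO26 (log2 fold change -4.73 ± 0.49, adjusted p = 6.63e-05). Chromosome 5, which also carries *Prom1* and *Flt1*, had a median of -0.11 in KO22, and 0.279% of its 1435 tested genes lay below *Kdr*. Among the 3 nearest tested genes on each side of *Kdr*, *Lnx1* and *Pdgfra*, on one side, were called lower in KO22 (log2 fold changes -1.32 and -1.51), and *Srd5a3*, the nearest on the other, had -0.29 (adjusted p = 0.172).

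*Flt1* (chr5:147498414-147662826) did not follow *Kdr*. It was at 32.8, 61.4, 63.5 and 60.8 CPM in WT, 77.1, 90.9 and 77.4 CPM in KO22, and 41.6 and 65.7 CPM in KO26. KO22 lay above all WT libraries, while one KO26 library was within the WT range and the other just above it. In KO22 the log2 fold change was 0.67 ± 0.16 (edgeR adjusted p = 0.0056), within the fold limit, and it was 1.22 and 0.44 in series 8995 and 9262. KO26 gave 0.12 ± 0.18 against WT (adjusted p = 0.752). Per kilobase the ratio of *Flt1* to *Kdr* was 0.0942 to 0.283 in WT, 0.388 and 0.800 in KO26, and 16.5 to 150.2 in KO22, so that the order of the receptors was the opposite in KO22. The remaining VEGF receptor, *Flt4* (VEGFR3), was not tested in mRPE.

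The neuropilins, co-receptors of VEGF and of class 3 semaphorins, moved in opposite directions in KO22. *Nrp1* (chr8:129085085-129231082), the partner of *Kdr* on arterial and capillary endothelium, was at 97.1, 137.0, 156.9 and 155.4 CPM in WT, 32.2, 46.9 and 44.9 CPM in KO22, and 83.1 and 151.6 CPM in KO26. KO22 was below every other library. The log2 fold change was -1.67 ± 0.11 in KO22 (edgeR adjusted p = 3.52e-06) and nearly the same in both series, at -1.58 and -1.69, while genes of chromosome 8 had a median of 0.60 in KO22. In KO26 it was -0.09 ± 0.13 (adjusted p = 0.73), and KO22 was below KO26 by -1.57 ± 0.14 (adjusted p = 2.08e-05).

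*Nrp2*, the partner of *Flt4* in lymphatic and venous endothelium (chr1:62742444-62857854), separated the knockout lines from WT in opposite directions. It was at 219.4, 146.0, 152.7 and 135.4 CPM in WT, 522.4, 333.4 and 330.1 CPM in KO22, and 72.8 and 44.3 CPM in KO26, with no overlap between groups. KO22 was above WT by 1.21 ± 0.10 on the log2 scale (edgeR adjusted p = 1.42e-05), just past the fold limit of 1.2, and under it when edgeR's own filter was used (1.14) or when WT replicate 1, WT replicate 4, KO22 replicate 2 or KO22 replicate 3 was left out (1.17 to 1.19). KO26 was below WT by -1.66 ± 0.13 (adjusted p = 0.000678) and was the only one of the 10 genes called in KO26, where 1.92% of 20737 tested genes were called, 1.21% higher and 0.719% lower. Against KO26, KO22 was 7.32-fold higher (log2 fold change 2.87 ± 0.14, adjusted p = 1.02e-06). Per kilobase the ratio of *Nrp2* to *Nrp1* was 1.10 to 2.86 in WT, 9.002 to 20.6 in KO22, and 1.11 and 0.370 in KO26.

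*Angpt1*, made by perivascular cells to stabilize vessels through Tie2 (chr15:42288058-42540417), was at 50.8, 78.6, 103.8 and 76.4 CPM in WT, 22.7, 37.9 and 31.7 CPM in KO22, and 65.5 and 84.1 CPM in KO26. KO22 lay below all other libraries, by -1.26 ± 0.14 on the log2 scale against WT (edgeR adjusted p = 8.51e-05), and without WT replicate 3 the value was -1.16, within the fold limit. KO26 gave 0.13 ± 0.17 (adjusted p = 0.704), and KO22 lay below KO26 by -1.40 ± 0.18 (adjusted p = 0.000219). Mural cell markers (9 of 10 had a row in the mRPE table) summed to 982.3 to 2070 CPM in WT, 321.8 to 444.8 CPM in KO22 and 1284 and 2316 CPM in KO26. The single markers did not all fall. Of the 8 tested in KO22 against WT, 2 were called higher and 4 lower (all genes, 11.4% and 13.8%). The part of mural cell markers in the *Angpt1* result was not tested.

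KO22 and KO26 are separate Prom1-KO lines, so they were also compared with each other. Between them 5 of the 10 genes were called lower in KO22 (*Vegfd*, *Pgf*, *Kdr*, *Nrp1* and *Angpt1*) and 1 higher (*Nrp2*), against 10.7% and 7.56% of 20737 genes and 18.3% in either direction. With the adjusted p alone 8 of 10 passed, and 34.4% of all genes. When both lines were treated as 1 knockout group, none of the 10 genes was called. That fit called few genes in all, 553 of 20737 higher and 196 lower.

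**Figure D2:**
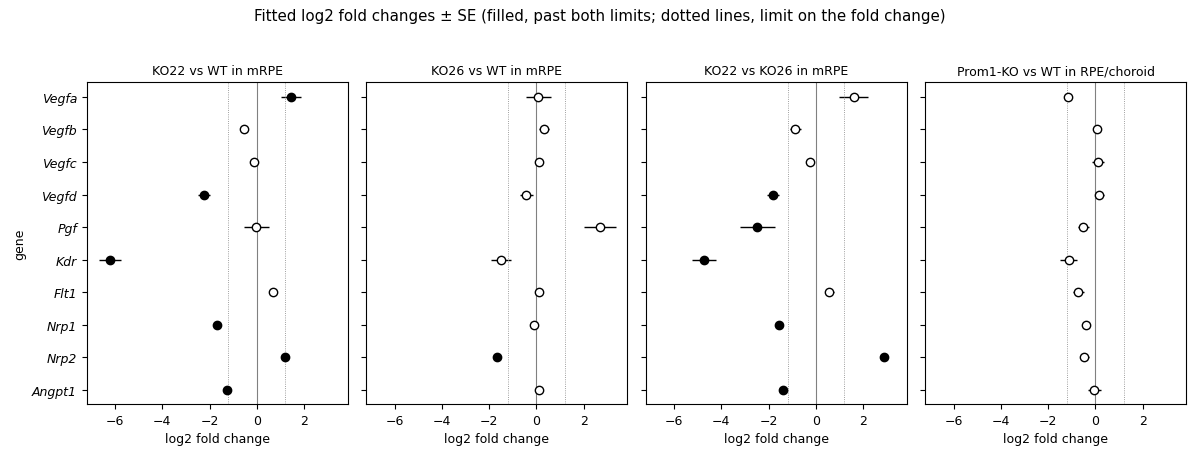
Fitted log2 fold changes with their SE (horizontal axis, the same in all panels) of the 10 genes in each comparison, with filled circles for genes past both limits and dotted lines at the fold limit of 1.2. In KO22 against WT 6 genes are filled, in KO26 against WT 1 is, and in RPE/choroid none is.

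**Figure D3:**
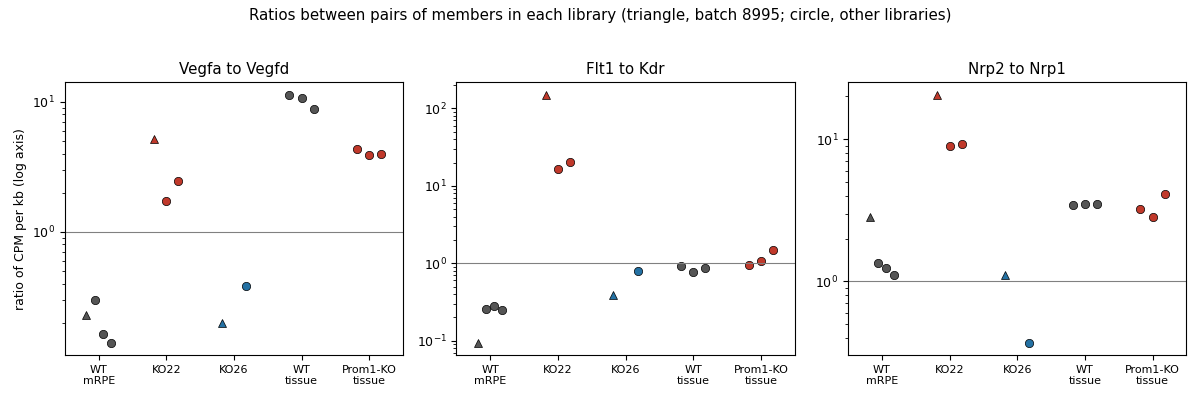
Ratio of CPM/kb (log axis) between pairs of genes in each library, with triangles for series 8995 and circles for all other libraries. The ratio of *Flt1* to *Kdr* lies at 16.5 to 150.2 in KO22 and under 1 in every WT and KO26 library of mRPE.

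Other genes of the pathway, from lists chosen for it, were counted in the same fits, in which 11.4% of all genes were called higher and 13.8% lower in KO22 against WT, with a median log2 fold change of -0.03. In the angiopoietin and Tie axis 5 of 7 genes were tested in KO22, and 1 was called higher and 4 lower, *Angpt1* included, with a median of -2.37. *Angpt2*, a context-dependent antagonist of *Angpt1*, was at 9.54 to 13.0 CPM in WT, 28.3 to 34.9 CPM in KO22 and 8.82 and 14.6 CPM in KO26, and rose in KO22 (log2 fold change 1.53 ± 0.12, edgeR adjusted p = 1.18e-05). *Angpt1* and *Angpt2* thus lay on opposite sides of WT in KO22. *Tek*, the Tie2 receptor, was scarce at 1.07 ± 0.281 CPM in WT and 0.190 ± 0.0453 CPM in KO22 and was called lower (-2.38 ± 0.43, adjusted p = 0.00133). *Svep1*, a large matrix protein that binds *Tie1*, fell by 5.99 on the log2 scale (adjusted p = 6.35e-07), from 184.8 to 407.1 CPM in WT to 1.30 to 7.91 CPM in KO22, and *Angpt4* fell in KO22 (-2.37 ± 0.36, adjusted p = 0.000467) and rose in KO26 (1.49 ± 0.31, adjusted p = 0.0303).

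Among semaphorins and plexins, the other ligands and receptors that the neuropilins serve, 4 of 11 tested genes were called higher and 5 lower in KO22 (all genes, 11.4% and 13.8%), and the median over the 11 was 0.11. *Sema3c* rose (log2 fold change 2.00 ± 0.15, edgeR adjusted p = 8.68e-06), with the plexin receptor genes *Plxna3* (1.34 ± 0.11) and *Plxnd1* (1.41 ± 0.14). *Sema3d* fell by 4.86 on the log2 scale, from 62.4 ± 12.2 CPM (SD, n = 4) to 2.03 ± 1.28 CPM (n = 3), and *Sema3f* (-1.92 ± 0.16) and *Sema3e* (-1.59 ± 0.26) were also called lower. In KO26 none of the 11 was called, and *Plxnd1* passed the adjusted p but not the fold limit (1.05 ± 0.19, adjusted p = 0.0182).

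Of genes that carry the signal inside the cell, 4 of 39 were called higher in KO22 and none lower, where 11.4% of all genes were called higher and 13.8% lower, so that the higher calls were no more frequent than over all genes. The median over the 39 was 0.31. They included *Cav1*, which scaffolds *Kdr* in caveolae (log2 fold change 2.24 ± 0.12, edgeR adjusted p = 1.12e-06), *Pik3cb* (1.38 ± 0.14) and *Nras* (1.27 ± 0.11). In KO26 none of the 39 was called. Of 10 regulators of the hypoxia-inducible factors, 2 were called lower in KO22, the partner subunit gene *Arnt2* (-3.97 ± 0.27, adjusted p = 4.59e-06) and *Hif3a* (-2.27 ± 0.16, adjusted p = 5.18e-06). *Hif1a* (0.52 ± 0.13, adjusted p = 0.00836) and *Epas1* (0.80 ± 0.19, adjusted p = 0.00576) passed the adjusted p and not the fold limit, and *Vhl* did not pass (-0.25 ± 0.14, adjusted p = 0.174). Of 20 hypoxia targets 2 were called higher in KO22, *Ak4* (1.77 ± 0.21) and *Ero1a* (2.12 ± 0.53), and the vasodilator gene *Adm* was called lower (-2.22 ± 0.30). In KO26 19 of the 20 had a positive log2 fold change, with a median of 0.66 against 0.03 over all genes, and none was called.

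Of inhibitors of angiogenesis, 4 of 9 tested were called lower in KO22 and none higher (all genes, 13.8% lower and 11.4% higher), with a median of -0.89. They were *Timp3*, an inhibitor of metalloproteinases that blocks *Vegfa* binding to *Kdr* (log2 fold change -3.02 ± 0.38, edgeR adjusted p = 0.000164), *Thbs1* (-1.71 ± 0.35, adjusted p = 0.00266), *Thbs2* (-1.57 ± 0.15) and *Adamts1* (-1.36 ± 0.15). *Serpinf1*, which makes the RPE's antiangiogenic factor PEDF, passed the adjusted p with opposite signs in the lines, at -0.62 ± 0.13 in KO22 (adjusted p = 0.0026) and 0.80 ± 0.14 in KO26 (adjusted p = 0.0184), both within the fold limit. KO22 was below KO26 by -1.42 ± 0.15 (adjusted p = 7.43e-05). In KO26 *Thbs1* gave -1.23 ± 0.41 (adjusted p = 0.127), and none of the 9 was called. *Thbs2* passed the adjusted p in KO26 but not the fold limit (-1.02 ± 0.23, adjusted p = 0.0393).

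Between KO22 and KO26, where 7.56% of all genes were called higher in KO22 and 10.7% lower, the lists were counted in the same way. In the angiopoietin and Tie axis *Angpt2* was higher in KO22 (log2 fold change 1.43 ± 0.19, edgeR adjusted p = 0.000262), and *Svep1* (-5.72 ± 0.38) and *Angpt4* (-3.88 ± 0.40) were lower. In KO26 against WT, *Tek* gave -1.37 ± 0.47 (adjusted p = 0.137). Of the 11 semaphorins and plexins 5 were called lower in KO22 and none higher, with *Sema3d* at -4.51 ± 0.48, *Sema3f* at -1.95 ± 0.21 and *Plxna2* at -1.78 ± 0.27. Of the 39 signal genes 4 were called higher, a share close to the 7.56% over all genes, among them *Cav1* (1.98 ± 0.15), *Nras* (1.48 ± 0.15) and *Pik3cb* (1.78 ± 0.19), and the regulatory subunit gene *Pik3r1* was called lower (-1.70 ± 0.16). *Epas1*, the HIF-2 alpha gene, was higher in KO22 (1.91 ± 0.32, adjusted p = 0.00113), with -1.08 ± 0.31 in KO26 against WT (adjusted p = 0.0836), while *Hif3a* (-2.85 ± 0.21) and *Arnt2* (-3.79 ± 0.31) were lower. *Hif1a* (0.88 ± 0.21) and *Vhl* (-0.97 ± 0.20) passed the adjusted p and not the fold limit. *Adm* (-1.91 ± 0.35), *Adamts1* (-1.87 ± 0.19) and *Timp3* (-2.92 ± 0.45) were lower in KO22 than in KO26.

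In RPE/choroid the tissue holds the source and the target of *Vegfa* together, since RPE cells and choroidal endothelium were dissected as one. None of the 10 genes was called with edgeR, where 0.189% of 24926 tested genes were, all of them lower (0 higher). At an unadjusted p under 0.05 there were 5 of the 10, and 2068 of all genes. The same 5 genes, *Vegfa*, *Kdr*, *Flt1*, *Nrp1* and *Nrp2*, were lower in every library labelled Prom1-KO than in every WT library, a pattern of 7.89% of all genes. DESeq2's test also called none of the 10, where it called 83 of 24926 genes higher and 190 lower. With DESeq2 *Vegfa* passed the adjusted p but not the fold limit. The median log2 fold change was -0.44 over the 10 genes and 0.01 over all genes. In bulk tissue, fewer cells of a type and less RNA per cell cannot be told apart, and of the knockout libraries replicates 1 and 2 had the female pattern and replicate 3 the high share of mitochondrial rRNA, so that no library labelled Prom1-KO matched the WT libraries in both.

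*Vegfa* was at 44.8, 40.0 and 39.4 CPM in WT and 21.6, 19.3 and 14.8 CPM in Prom1-KO. The groups were well apart, and the spread within each was small. The log2 fold change was -1.15 ± 0.17 (edgeR adjusted p = 0.0604, 2.23-fold lower), and without replicate 3 labelled Prom1-KO it was -1.03. With replicate 3 as the only Prom1-KO library, so that all libraries had the male pattern, it was -1.51 (adjusted p = 0.157). The RPE markers summed to 2862, 1921 and 2510 CPM in WT and 609.2, 697.7 and 536.6 CPM in Prom1-KO. Of these 12 markers 4 were called lower, where 0.189% of all genes were. *Vegfa* was 15.6, 20.8 and 15.7 CPM per 1000 CPM of RPE markers in WT and 35.5, 27.7 and 27.5 in Prom1-KO. Markers of Müller glia and astrocytes, another source of *Vegfa* in the eye, summed to 164.8 to 269.4 CPM in WT and 228.8 to 376.8 CPM in Prom1-KO, with all 7 positive and none called. *Vegfa* was thus lower in Prom1-KO as a level and higher relative to the RPE markers, and the part of RPE or glial RNA in its lower level was not tested. The genes most like *Vegfa* over the 6 libraries, of 15339 compared, were *Htr3a* (Pearson r = 0.996), *Cspg5* (0.994), the retinol dehydrogenase gene *Rdh5* of the RPE visual cycle (0.992), *Nt5dc3* (0.990) and *Flvcr2* (0.990), and these values, too, share the libraries and their groups.

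*Kdr* was at 24.0, 49.1 and 32.2 CPM in WT and 22.3, 16.6 and 9.26 CPM in Prom1-KO. The highest Prom1-KO library lay close to the lowest WT library. The log2 fold change was -1.13 ± 0.37 (edgeR adjusted p = 0.443). For *Flt1* the values were 32.8, 55.6 and 41.9 CPM in WT and 31.6, 26.7 and 20.5 CPM in Prom1-KO, with a log2 fold change of -0.72 ± 0.24 (adjusted p = 0.443). *Flt4*, the lymphatic receptor that fenestrated choroidal capillaries also carry, was at 9.76 ± 2.44 CPM in WT and 4.63 ± 1.21 CPM in Prom1-KO (SD, n = 3 each; log2 fold change -1.07 ± 0.26, adjusted p = 0.246).

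The receptors were read beside other endothelial genes of the same libraries. The 15 endothelial markers summed to 129.9, 257.1 and 187.2 CPM in WT and 123.4, 115.4 and 118.9 CPM in Prom1-KO, 14 of the 15 had a negative log2 fold change, and none was called. *Plvap*, the diaphragm protein of fenestrated capillaries, gave -1.69 ± 0.28 (edgeR adjusted p = 0.0993) and *Tie1* -1.21 ± 0.28 (adjusted p = 0.222). The ratio of *Kdr* to the summed endothelial markers was 0.185, 0.191 and 0.172 in WT and 0.181, 0.144 and 0.0778 in Prom1-KO. For *Flt1* it was 0.252, 0.216 and 0.224 in WT and 0.256, 0.231 and 0.172 in Prom1-KO. Only replicate 3 labelled Prom1-KO was below WT in the ratio of *Flt1*, and it was lowest for *Kdr* too. The part of endothelial RNA in the lower receptor levels was not tested. The ratio of *Flt1* to *Kdr* per kilobase was 0.762 to 0.919 in WT and 0.955 to 1.49 in Prom1-KO, without overlap. Over the 6 libraries, *Rpap1* (Pearson r = 0.996), *4930579G18Rik* (0.996), *Dysf* (0.996), *Cyyr1* (0.995) and *Shank3* (0.991) were most like *Kdr*.

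**Figure D4:**
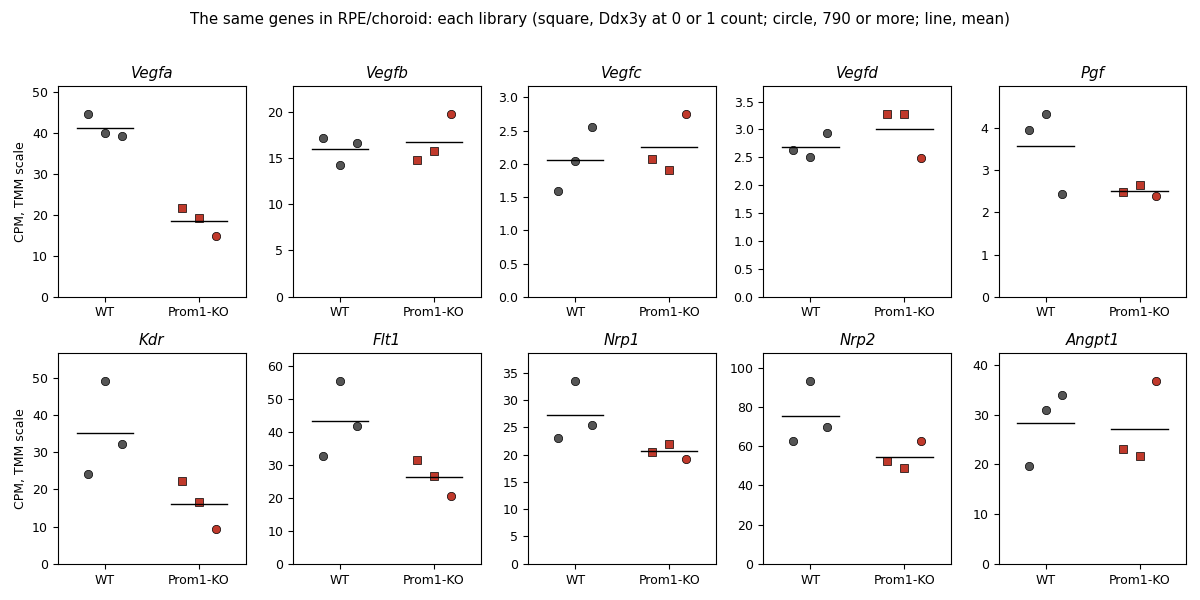
CPM on the TMM scale (axes from 0) in each RPE/choroid library of WT (n = 3) and labelled Prom1-KO (n = 3), with squares for libraries with *Ddx3y* at 0 or 1 count and a line at the mean. All Prom1-KO libraries are below all WT libraries for *Vegfa*, *Kdr*, *Flt1*, *Nrp1* and *Nrp2*.

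**Figure D5:**
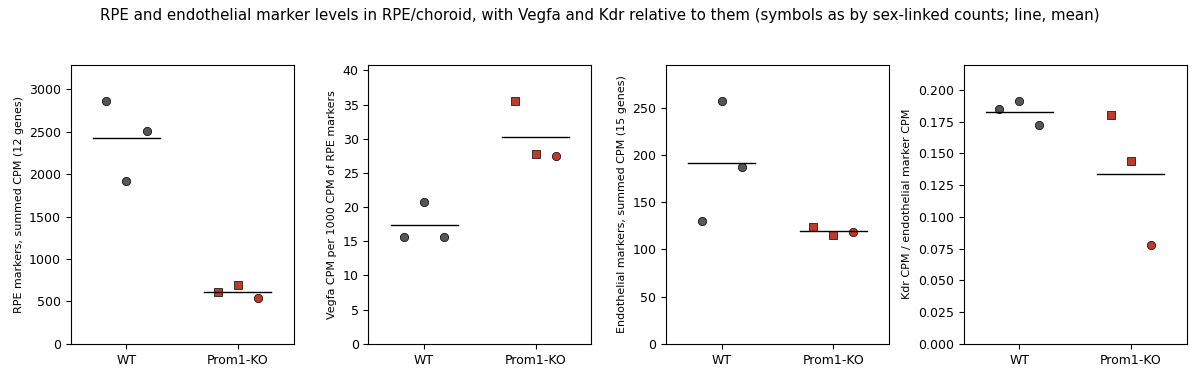
Summed CPM of 12 RPE and 15 endothelial markers, *Vegfa* CPM per 1000 CPM of RPE markers and the ratio of *Kdr* to endothelial markers in each RPE/choroid library (axes from 0), with squares for libraries with *Ddx3y* at 0 or 1 count and a line at the mean. RPE markers lie at 536.6 to 697.7 CPM in Prom1-KO and 1921 to 2862 CPM in WT.

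*Nrp1* was at 23.0, 33.5 and 25.4 CPM in WT and 20.5, 22.0 and 19.2 CPM in Prom1-KO (log2 fold change -0.41 ± 0.17, edgeR adjusted p = 0.578). *Nrp2* was at 62.8, 93.3 and 69.8 CPM in WT and 52.6, 48.9 and 62.6 CPM in Prom1-KO (-0.46 ± 0.19, adjusted p = 0.576). The groups did not overlap, and for *Nrp2* the gap between them was narrow. The ratio of *Nrp2* to *Nrp1* per kilobase was 3.45 to 3.53 in WT and 2.82 to 4.13 in Prom1-KO.

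The other ligands and *Angpt1* overlapped between the groups. *Vegfb* was at 14.3 to 17.1 CPM in WT and 14.8 to 19.8 CPM in Prom1-KO (log2 fold change 0.07 ± 0.15, edgeR adjusted p = 0.948). *Pgf* was at 3.94, 4.33 and 2.43 CPM in WT and 2.49, 2.65 and 2.39 CPM in Prom1-KO (-0.51 ± 0.24, adjusted p = 0.649). The lymphangiogenic ligands were low, with *Vegfc* at 1.59 to 2.55 CPM in WT and 1.91 to 2.75 CPM in Prom1-KO (0.12 ± 0.25, adjusted p = 0.943) and *Vegfd* at 2.503 to 2.94 CPM and 2.49 to 3.28 CPM (0.17 ± 0.18, adjusted p = 0.862). *Angpt1* was at 19.7 to 34.0 CPM in WT and 21.7 to 36.8 CPM in Prom1-KO (-0.06 ± 0.27, adjusted p = 0.976). With the total count in place of TMM the median of all genes shifted to -0.46, and the values of *Vegfb*, *Vegfc* and *Vegfd* were then negative (-0.47, -0.43 and -0.26).

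Of the other pathway genes in RPE/choroid none was called in any list. All 7 genes of the angiopoietin and Tie axis had a negative log2 fold change, with a median of -0.43, among them *Angpt2* (-0.14 ± 0.22, edgeR adjusted p = 0.913) and *Tek* (-0.62 ± 0.25, adjusted p = 0.587). *Sema3c* was at 72.7 ± 18.2 CPM in WT and 25.1 ± 14.3 CPM in Prom1-KO (SD, n = 3 each; -1.54 ± 0.39, adjusted p = 0.284), against a rise in KO22. *Thbs1* was at 53.2 ± 6.86 CPM in WT and 100.9 ± 17.1 CPM in Prom1-KO (0.92 ± 0.17, adjusted p = 0.14). Of 20 hypoxia targets 13 had a positive value, with a median of 0.15. *Epas1*, at 223.9 ± 35.2 CPM in WT, gave -0.46 ± 0.16 (adjusted p = 0.477), *Hif1a* 0.31 ± 0.17 (adjusted p = 0.7), *Vhl* -0.02 ± 0.22 (adjusted p = 0.994) and *Serpinf1* -0.70 ± 0.39 (adjusted p = 0.706).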

How the data were processed

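RNA-seq raw counts per gene of 9 mRPE and 6 RPE/choroid libraries were analysed as deposited. Per the study's methods, the authors trimmed the reads with TrimGalore 0.6.7, aligned them to mm39 with STAR and deposited the counts. The kit is given as TruSeq in the methods and as NEB in the labels, and the labels name polyA RNA. The deposited normalized tables were not used. Genes reaching 5 counts in 3 or more libraries entered the two-sided quasi-likelihood test of edgeR 4.0.16 in R 4.3.3, with TMM, Benjamini-Hochberg adjustment over all genes tested, and the library series as a term in mRPE. KO26 was fitted over all 9 mRPE libraries, which share 1 estimate of the spread. SE was derived from the log2 fold change and F. Ratios within a series used a pseudocount of 0.5 CPM, exon lengths came from GENCODE M39, and log2 CPM for likeness used a prior count of 2 and genes with a mean of at least 1 CPM. Alternatives were DESeq2 1.42.0, its size factors, other filters, no series term, other sets of libraries and each library left out. The fits without mitochondrial genes and with male-pattern libraries alone were added after seeing the data. The fit was tested on simulated data. The members and lists were chosen with earlier results of these data known. The text names all members, up to 3 called genes per list, direction and comparison by adjusted p, and a fixed set of 9 pathway genes whatever their result. Other genes named (sex-linked genes, markers, neighbours, and *Sema3c* in tissue) were chosen after their values were seen. Replicates were numbered in the order of deposit. The study calls the mRPE libraries biological replicates, and whether they came from separate cultures, or the tissue libraries from separate animals, is not stated, so the p-values measure the spread between these libraries, which may be technical. *Prom1* in mRPE was not analysed here. Promoter sequences came from RefSeq (GRCm38.p6), which held 9 of the 10 members.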

Additional observations from a re-analysis of the deposited data

Results flagged for a closer look

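In WT mRPE 3 single libraries lay far from the other 3 of their group: replicate 2 for *Vegfa* (107.2 CPM), replicate 1 for *Kdr* (234.5 CPM) and replicate 1 for *Flt1* (32.8 CPM). Chance alone flags about 1 in 20 such groups, and 10 genes were looked at. Replicate 1 is the only WT library of series 8995.

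KO22 differed from KO26 by a test of the difference itself, with edgeR and an adjusted p under 0.05, for 8 of the 10 genes. Of all 20737 tested genes 34.4% passed the same rule, and *Vegfb* and *Flt1* were within the fold limit. The log2 fold changes of KO22 against KO26 were -0.88 for *Vegfb*, -1.80 for *Vegfd*, -2.48 for *Pgf*, -4.73 for *Kdr*, 0.56 for *Flt1*, -1.57 for *Nrp1*, 2.87 for *Nrp2* and -1.40 for *Angpt1*.

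Every KO22 library was above every WT mRPE library, and every RPE/choroid library labelled Prom1-KO below every WT tissue library, for *Vegfa*, *Flt1* and *Nrp2*. Their log2 fold changes in RPE/choroid were -1.15, -0.72 and -0.46. The difference between cells and tissue was not tested.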

How the results depend on the processing

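The calls of *Vegfd*, *Kdr* and *Nrp1* in KO22 held under every alternative except both lines as 1 knockout group, which left 0 of the 10 genes called higher and 0 lower. Over all 20737 genes that fit called 553 higher and 196 lower. The number called higher in KO22 fell to 1 with filterByExpr and to 1 in series 9262 alone. It ranged from 0 to 2 when 1 library was left out. *Nrp2* lies at the fold limit, and *Vegfa* passed that limit only with both libraries of series 8995. Against WT, KO26 had 1 gene called higher with DESeq2 (*Pgf*), and 1 higher and 2 lower with WT and KO26 alone, and leaving out 1 library gave 0 to 1 higher and 1 to 2 lower. Without KO22 replicate 1 *Pgf* and *Kdr* were both called in KO26 (2.67 and -1.59), in a fit that called 471 of 20472 genes higher and 407 lower. Without KO26 replicate 1 the log2 fold change of *Pgf* in KO26 was 3.71. KO22 against KO26 had 2 called higher with no fold limit, and 1 to 2 when 1 library was left out. *Vegfa* was the second of these (2.04 without KO22 replicate 2, 2.01 without replicate 3 and 2.76 without KO26 replicate 2). *Pgf* lost its call without the same libraries (-1.97, -2.03 and -0.79), and *Vegfb* was called lower without KO26 replicate 2 (-1.23). The causes were not tested.

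Signs turned only where the log2 value was small or 1 library weighed heavily. In KO22 *Pgf* was 0.29 without the series term, 0.20 in 1 fit over all libraries and 1.75 with both lines together, and *Vegfc* was 0.019 in series 9262 alone. When 1 library was left out, *Pgf* ranged from -1.003 to 0.25 and *Vegfc* from -0.23 to 0.024. In KO26, without the series term, *Vegfc* was -0.011, *Flt1* -0.028 and *Angpt1* -0.049. With 1 library left out, *Vegfa* ranged from -1.30 (without KO26 replicate 2) to 0.74, *Flt1* from -0.059 to 0.19, *Nrp1* up to 0.031 and *Angpt1* from -0.018 to 0.32. In RPE/choroid with the total count, *Vegfb* was -0.47, *Vegfc* -0.43 and *Vegfd* -0.26. With male-pattern libraries alone *Vegfd* was -0.14 and *Angpt1* 0.36. Over the fits without 1 library, *Vegfb* ranged from -0.081 to 0.14, *Vegfc* from -0.061 to 0.30 and *Angpt1* from -0.35 to 0.099. The cause of these turns was not tested. None of the 10 genes was called in RPE/choroid under any alternative. *Vegfa* in RPE/choroid had adjusted p-values between 1.069e-06 (DESeq2, where the fold limit was not reached) and 0.2621.

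No paired analysis was possible because the labels give no replicate numbers that groups share. The library series, which groups in mRPE do share, is a term in the mRPE fits, and its removal is given above. Intervals and errors cover the spread between these libraries, and *Pgf* and *Tek* in mRPE and *Kdr* in KO22 rest on few counts.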
